A study of Cricetulus griseus and Cricetulus griseus
Mus musculus and Mus musculus with 202 samples.

Results

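Mammalian cells keep reactive metals and oxidants in check with a small set of proteins, and 10 of their genes are described here: the metallothioneins Mt1, Mt2 and Mt3, the thioredoxin genes Txn1, Txnrd1 and Txnip, the superoxide dismutases Sod1, Sod2 and Sod3, and the catalase gene Cat. All 10 had features with a single symbol in the probe table, 11 features among the 20868 of the array, and they are 10 of the 16504 genes measured. The genes were chosen by function and selected on measured values of this dataset: Mt1 and Txnip lay below the recipient line in the hybrid panel, and Sod2 differed between hybrid lines. Their values against the recipient line and their differences between lines are therefore given as a description, while the species ratios in brain and liver played no part in the choice.

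Metallothioneins are small cysteine-rich proteins that bind zinc, copper and cadmium, and zinc itself turns on Mt1 and Mt2 through the transcription factor MTF1. Thioredoxin reduces disulfides and is recharged by thioredoxin reductase, while Txnip binds thioredoxin and blocks it. Superoxide dismutases turn superoxide into hydrogen peroxide, in the cytosol (Sod1), in mitochondria (Sod2) and outside the cell (Sod3), and catalase splits that peroxide in peroxisomes. The liver is a main site of metallothionein and catalase, and Mt3 is best known from the brain.

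The study measured 99 lines of the T31 mouse-hamster radiation hybrid panel, mouse brain against Chinese hamster brain, and mouse liver against Chinese hamster liver, on 202 arrays with a red and a green dye. A radiation hybrid line is made by fusing lethally irradiated mouse cells with hamster cells, so that it holds the hamster genome and, in addition, its own random set of mouse fragments. Here the recipient was the hamster line A23, which lacks thymidine kinase, and each hybrid line was compared with A23 on 2 arrays. Hybrids and A23 were grown alike, in DMEM with serum and antibiotics to 75% confluence, and the tissue RNA came from whole brain and whole liver. The labels give no strain, age or sex of the animals.

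On replica 1 the A23 or hamster RNA carried Cy5 and on replica 2 the hybrid or mouse RNA did, so that replicate number and dye orientation coincide. All values below are log2 ratios of hybrid over A23 or of mouse over hamster. They are ratios within an array and carry no level, so that genes could not be ranked by abundance and the tissue labels could not be checked through marker levels. No A23 culture was measured against another. The labels call both arrays of a line biological replicas but name no cultures or animals, so the p-values cover no more than the spread among these arrays, and part of it may be technical.

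The panel is noisy, which bears on every line value below. After the mean of each gene in each orientation was removed, both arrays of a line correlated across genes with a median r of 0.168, against -0.00224 for arrays of different lines, and in 28 of 99 lines the replica 1 array had its own replica 2 array as its best match. These are called the matched lines. Whether some arrays carry the label of another line was not tested, so every value of a single line below, and every correlation between arrays, holds for the lines as labelled. Tk1, the thymidine kinase gene that hybrids need for growth in selective medium, averaged 1.84 ± 0.08 (SE, n = 99) and was above 0 in 98 lines. Over all genes, 61.3% had panel means of opposite sign in the orientations.

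Among the metallothioneins, Mt1 was low in the hybrids, Mt2 was moderately high and Mt3 was slightly low. Line means of Mt1 ran from -3.98 in line 59 through a median of -1.49 to 1.15 in line 24. By its line means Mt1 was thus below A23 in all but 8 of the 99 lines, and both arrays lay below 0 in 79. In 46 lines both arrays lay under -1. By the number of such lines Mt1 ranked 2 of 16504 genes, and the median gene had 0. Mt1 was chosen as low in this panel, so the rank only describes it. The panel mean of Mt1 was -1.52 ± 0.11 (SE, n = 99), 0.348 times the A23 level. The orientations gave nearly the same mean, -1.51 in replica 1 and -1.53 in replica 2, and the 28 matched lines gave -1.49.

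Mt2 ran the other way. Its line means reached from -0.95 in line 89 through a median of 0.35 to 4.32 in line 14, and 75 of 99 lines were above 0. The panel mean was 0.54 ± 0.09 (SE, n = 99), 1.45 times A23, with 0.46 in replica 1 and 0.61 in replica 2. Most lines sat close to A23 and a few stood far above it: in 8 lines both arrays were over 1. Line 14 gave 3.54 and 5.11 on its arrays, line 2 gave 2.45 and 4.59, line 95 gave 4.57 and 2.03, and line 24 gave 3.56 and 2.40. Line 23 gave 6.64 and 1.09, where 6.64 lies at the limit of the table's values and is a lower bound. Across genes the arrays of line 23 correlated at -0.408, the lowest value of the 99 lines, so its values need care for every gene.

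Mt3 had line means between -3.49 in line 42 and 0.72 in line 23, with a median of -0.38. It was above 0 in 24 lines, and both arrays were under -1 in 4. Its panel mean of -0.52 ± 0.07 (SE, n = 99) came more from replica 1, at -0.78, than from replica 2, at -0.26. In the matched lines it was -0.17, and there limma no longer called it.

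**Figure D1:**
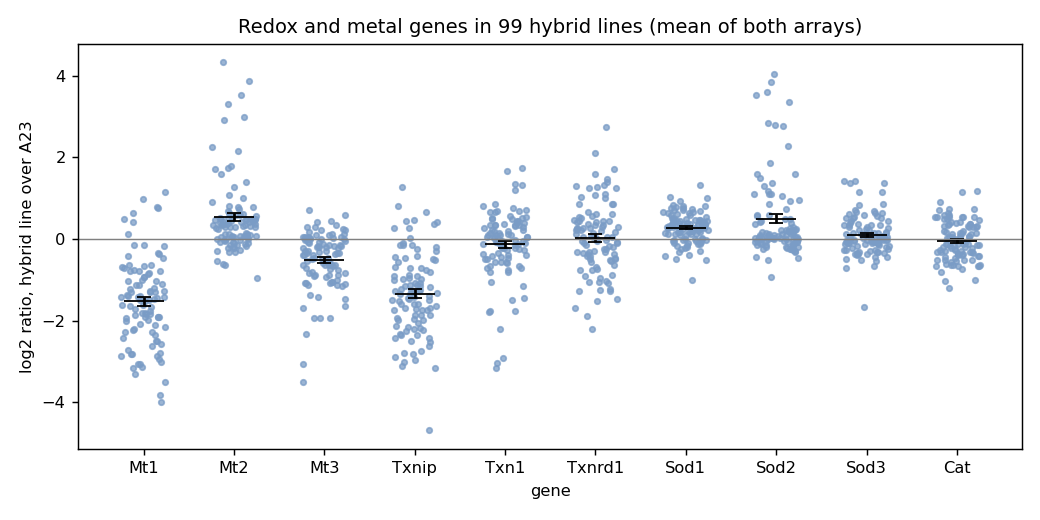
Log2 ratio of each hybrid line over A23 (vertical axis, mean of both arrays) for the 10 genes (horizontal axis). Each point is 1 of 99 lines, and the black bar is the panel mean with its SE. Mt1 and Txnip lie mostly below 0, with means of -1.52 and -1.34, and Mt2 and Sod2 have a long tail of high lines that reaches 4.32 and 4.04.

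Of the thioredoxin genes, Txnip, the inhibitor, was the low one, and thioredoxin and its reductase lay near A23. Line means of Txnip ran from -4.69 in line 42 through a median of -1.34 to 1.27 in line 24, and 10 lines were above 0. Both arrays were under -1 in 35 lines, which placed it at rank 8 of all genes. Txnip too was chosen as low in this panel, so its rank only describes it. The panel mean was -1.34 ± 0.10 (SE, n = 99), 0.396 times A23. Its size depended on the orientation, with -1.81 in replica 1 and -0.86 in replica 2, while the direction did not. In the matched lines it was -1.28.

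Txn1, thioredoxin itself, had a panel mean of -0.13 ± 0.09 (SE, n = 99), with 48 of 99 lines above 0. That value hides opposite means, -0.76 in replica 1 and 0.49 in replica 2. Line means spread from -3.15 in line 29 to 1.73 in line 23. Txnrd1, the cytosolic thioredoxin reductase, averaged 0.02 ± 0.09, with 51 lines above 0, and its means of -0.06 and 0.11 were close to 0 in both orientations. Single lines still lay far out, with 8 lines over 1 and 3 lines under -1 on both arrays.

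Of the dismutases and catalase, Sod2 was high in a minority of lines, and the others had panel means closer to A23. Line means of Sod2 ran from -0.94 in line 23 through a median of 0.10 to 4.04 in line 28. In 64 of 99 lines both arrays lay under 0.5, in 15 lines both were over 1, and 20 lines fell in between or disagreed. The panel mean was 0.50 ± 0.10 (SE, n = 99), with 0.55 in replica 1 and 0.44 in replica 2, and 0.76 in the matched lines. The highest lines were high on both arrays: line 28 gave 3.27 and 4.80, line 87 gave 4.15 and 3.52, line 22 gave 4.16 and 3.03, line 14 gave 3.30 and 3.73, and line 18 gave 2.96 and 3.74. On the liver arrays this feature gave at least 14.1 times more signal with mouse than with hamster RNA. More Sod2 RNA and better binding of mouse RNA therefore cannot be told apart in these line values.

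Sod1, the cytosolic enzyme, is the only one of the 10 genes with 2 features, and these disagreed in their spread over lines. Feature 2097 averaged 0.21 ± 0.05 and feature 21820 averaged 0.34 ± 0.07 (SE, n = 99), yet their line means correlated at r = -0.218. Feature 2097 was exactly 0 on 41 arrays of replica 1 and 16 of replica 2, and feature 21820 on 0 and 1. Averaged, Sod1 stood at 0.27 ± 0.04 and was above 0 in 76 of 99 lines, with -0.01 in replica 1 and 0.56 in replica 2. In replica 1 the features had opposite means, 0.33 for feature 2097 and -0.36 for feature 21820. In replica 2 they had 0.08 and 1.05.

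Sod3, the secreted enzyme, averaged 0.11 ± 0.05 (SE, n = 99) and was above 0 in 52 lines. Its orientation means had opposite signs, 0.43 in replica 1 and -0.21 in replica 2, and 9.09% of its values were exactly 0. Cat averaged -0.04 ± 0.05, with 46 lines above 0, and its orientation means of -0.42 and 0.34 also had opposite signs. No line had both arrays beyond 1 in either direction for Sod3 or for Cat.

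**Figure D2:**
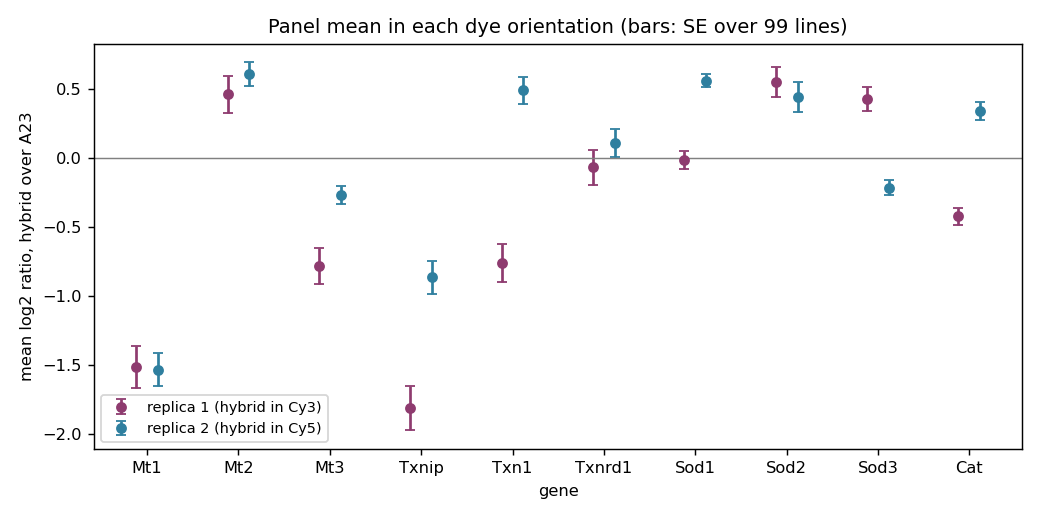
Mean log2 ratio of hybrid over A23 (vertical axis) in replica 1, where the hybrid RNA carried Cy3, and in replica 2, where it carried Cy5, for the 10 genes (horizontal axis). Points are means over 99 lines and bars are their SE. Mt1, Mt2, Mt3, Txnip and Sod2 lie on the same side of 0 in both, while Txn1, Txnrd1, Sod1, Sod3 and Cat change sides. In replica 1 Txnrd1 and Sod1 lie close to 0, at -0.06 and -0.01.

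Calls were made with limma over all genes and needed an adjusted p below 0.05 together with a panel mean of 0.2 or more in size. By these, Mt2, Sod1 and Sod2 were called higher and Mt1, Mt3 and Txnip lower. That is 3 and 3 of the 10 genes, where 19.5% and 11.4% of all genes were called, and the median panel mean was -0.01 over the 10 genes and 0.01 over all genes. When each orientation was required to pass on its own and in the same direction, 2 of the 10 genes were higher, Mt2 and Sod2, and Mt1, Mt3 and Txnip were lower, where 6.08% and 3.26% of all genes were called. Txn1 and Cat passed as lower in replica 1 and as higher in replica 2, and Sod3 as higher and then as lower. Since the genes were chosen with this contrast in view, the counts describe them and support nothing.

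The other genes of these pathways were taken from lists of metal handling, the thioredoxin system, and peroxide and NRF2 genes, of which 69 of 74 genes were measured. Of 24 metal handling genes, 5 were higher and 3 lower in the panel, where 19.5% and 11.4% of all genes were called, with a median of -0.01. With both orientations required, 2 were higher and 1 lower, where 6.08% and 3.26% of all genes were called. The lowest of them was Slc30a1, a zinc exporter of the plasma membrane that is also switched on by MTF1, at -0.46 ± 0.06 (SE, n = 99), with -0.53 in replica 1 and -0.40 in replica 2. Of 24 thioredoxin system genes, 4 were higher and 4 lower, and 2 and 0 with both orientations required, with a median of 0.00. The peroxiredoxin Prdx1 was the lowest at -0.53 ± 0.12, with -0.92 and -0.14 in the orientations. Of 21 peroxide and NRF2 genes, 4 were higher and 4 lower, and 3 and 0 with both orientations required, with a median of 0.09. The highest of these were the quinone reductase Nqo1 at 0.87 ± 0.16, which had 2.02 in replica 1 and -0.27 in replica 2, and the glutathione peroxidase relative Gpx8 at 0.82 ± 0.16.

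Agreement between both arrays of a line differed among the 10 genes, and Sod2 stood apart from the rest. For Sod2 the replica 1 and replica 2 values correlated at r = 0.760 over the 99 lines (Spearman 0.562), and at 0.714 without the 2 lines farthest from the median. For Mt2 the value was 0.437 (Spearman 0.245), and 0.487 without 2 lines. It was 0.230 for Mt1 (Spearman 0.248), 0.166 for Cat (Spearman 0.157) and 0.153 for Txnrd1 (Spearman 0.175). By Spearman, Mt2 was thus not set apart from Mt1. It was 0.05 for both Txnip and Txn1, and it was negative for Mt3, Sod3 and Sod1, at -0.03, -0.131 and -0.141. A low value means that the order of the lines for that gene was not repeatable. That includes Txnip, with 10 line means above 0 and both arrays below 0 in 70 of 99 lines. The arrays compared here share no hybridisation but share the line, and correlations are given as descriptions.

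**Figure D3:**
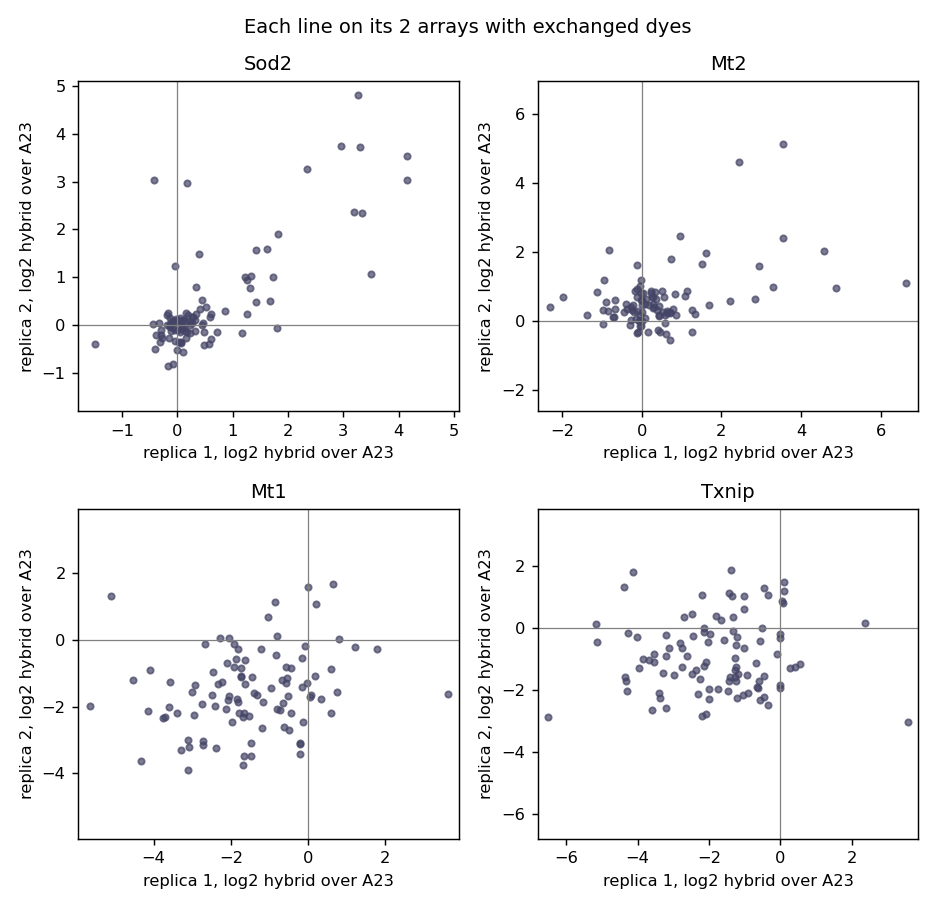
Log2 ratio of hybrid over A23 on replica 1 (horizontal axis) and replica 2 (vertical axis) for Sod2, Mt2, Mt1 and Txnip, with 1 point for each of 99 lines. Sod2 shows a cloud at 0 and a tail of lines that are high on both arrays (r = 0.760), Mt2 has a smaller tail (r = 0.437), and Mt1 and Txnip form clouds below 0 (r = 0.230 and 0.05).

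By the moderated F test over lines, with the dye orientation as a term, limma called Sod2 and Mt2 among the 10 genes, where 8.88% of all genes were called. The intraclass correlation of both arrays within a line was 0.760 for Sod2 and 0.396 for Mt2, against a median of 0.0414 over all genes. Sod2 was chosen because it differed between lines, so its call and its correlation describe it and support nothing. Mt1, at 0.224, was not called with all lines, and it was called when every array was scaled to the same spread. Of the listed pathway genes, 5 of 24 metal handling genes, 5 of 24 thioredoxin system genes and 4 of 21 peroxide and NRF2 genes differed between lines. In the matched lines 6 of the 10 genes were called, but those lines had been kept because their arrays agree.

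The genes most like Sod2 over the lines, by the lower of the correlations within replica 1 and within replica 2, were Mrpl18, a protein of the mitochondrial ribosome, at 0.679, Afdn, an adherens junction protein, at 0.525, and Igf2r, the receptor that clears IGF2, at 0.520. The median gene had -0.05. The same 3 genes led when Sod2 was read from one array of a line and the other gene from its other array, at 0.529, 0.441 and 0.433, followed by Fam120b at 0.362, Ccndbp1 at 0.339 and Gatm at 0.327. Each of these values between arrays is the lower of both, with Sod2 read from replica 1 or from replica 2. As background, Mrpl18, Afdn, Igf2r and Fam120b lie on the mouse chromosome of Sod2, while Ccndbp1 and Gatm lie on another. Positions were not analysed here.

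Mt2 was looked at in the same way after its values were seen. Its values between arrays below are again the lower of both. Read from separate arrays, the genes most like Mt2 were Atp6v0d1, a subunit of the vacuolar proton pump, at 0.398, Slc7a6os at 0.343, Chmp1a, a protein of the ESCRT membrane-cutting machinery, at 0.339, Arl2bp, which binds the small GTPase ARL2, at 0.337, the mitochondrial thymidine kinase gene Tk2 at 0.296, and Psme3ip1 at 0.293. All 6 lie on the mouse chromosome that carries the metallothionein genes, again as background. By the lower of both values, no gene came closer to Mt2 than Mt2 itself on its other array, at 0.437. The same held for Sod2. With Mt2 read from replica 2 alone, Arl2bp reached 0.501.

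Mt1 and Txnip behaved otherwise. Within an orientation the genes most like Mt1 were Ncoa5 at 0.610, Riok2 at 0.595 and Sf3b4 at 0.595, and those most like Txnip were Acap2 at 0.795, Guk1 at 0.791 and Ddx50 at 0.789. Between separate arrays, the lower of both values for the same genes was 0.129, 0.005 and 0.067 with Mt1. With Txnip it was -0.059, 0.064 and 0.014. The likeness of these genes to Mt1 and Txnip was seen within arrays and not between arrays of the same lines. Between their own arrays Mt1 reached only 0.230 and Txnip 0.05, so a likeness over lines could hardly show there. By the lower of both values between arrays, the highest for any other gene was 0.273 for Mt1 and 0.256 for Txnip.

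The 45 pairs among the 10 genes showed the same contrast. On line means 11 pairs had a correlation beyond 0.4 in size, among them Mt3 with Txnip at 0.632, Txn1 with Txnrd1 at 0.623 and Mt1 with Txnip at 0.512. Txn1 and Txnrd1, thioredoxin and its reductase, had 0.740 within replica 1 and 0.615 within replica 2, but -0.063 and 0.049 between separate arrays. Between their own arrays Txn1 had 0.05 and Txnrd1 0.153, so a likeness over lines could hardly show there. Of the 11 pairs, only Mt1 with Sod3 kept its sign with both values between arrays beyond 0.1 in size, at -0.427 on line means and -0.180 and -0.187 between arrays. Over all 45 pairs the values between arrays had a median of 0.0267 and ran from -0.377 to 0.336.

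Mt1 and Mt2, which are neighbours in the mouse genome, correlated at 0.319 on line means (Spearman 0.070), at 0.158 and 0.317 within the orientations, and at 0.178 and 0.251 between arrays. By the lower of the values between arrays, Mt2 ranked 26 of 16503 genes for likeness to Mt1, and Mt1 ranked 129 for likeness to Mt2. By the lower of the values within the orientations, the planned measure, these ranks were 2671 and 279. Of the 5 highest lines for each gene, 3 were shared, namely lines 14, 23 and 24, none of which is a matched line. In line 14 Mt1 gave -0.01 and 1.58, in line 24 it gave 0.63 and 1.67, and in line 23 it gave 3.61 and -1.63. The high lines for Sod2 were other ones for the most part: lines 14 and 87 are the only ones in which both arrays were over 1 for both Sod2 and Mt2.

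**Figure D4:**
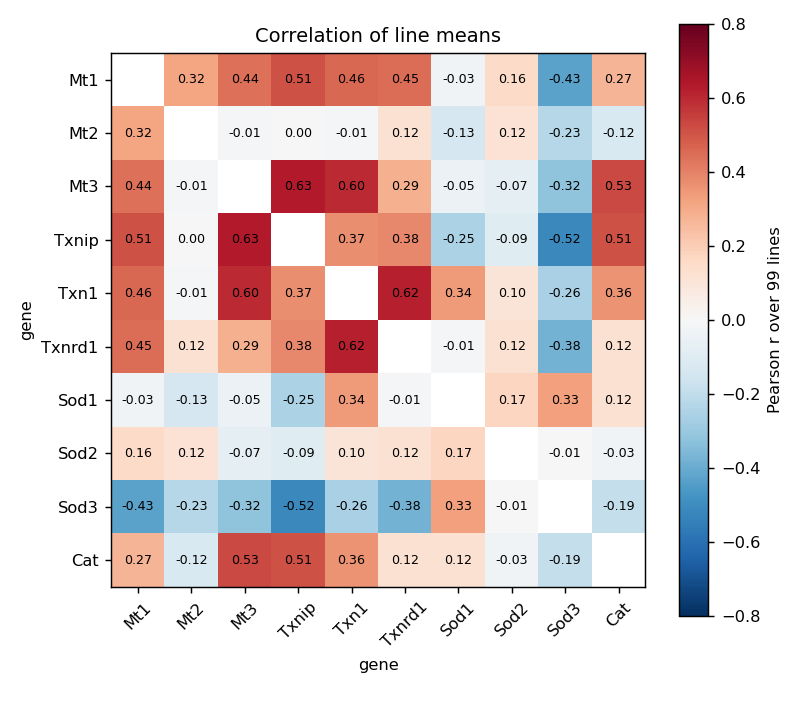
Pearson correlation of line means over 99 lines for each pair of the 10 genes, coloured from -0.8 to 0.8 with the value printed in each cell. Mt1, Mt3, Txnip, Txn1 and Txnrd1 form a block of positive values, such as 0.632 for Mt3 with Txnip, which between separate arrays fell to -0.124 and 0.018. With Sod2 no value exceeds 0.170, its value with Sod1.

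The tissue arrays asked which of these genes give unequal signal in mouse and hamster, and whether that ratio depends on the tissue. Mt2, at 2.01 in brain, was the member that passed the test there, and Mt1 had the widest gap between the tissues, with log2 means of 1.43 in brain and -3.55 in liver. Weaker binding of hamster RNA to probes designed for mouse cannot be told apart from a lower hamster level, and in whole tissue fewer cells of a type cannot be told apart from less RNA per cell. Errors below (±) are the SE that limma gave when all 4 arrays were fitted together, with n = 2 per tissue, and the 95% intervals have the same source.

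Single tissue arrays need care, because the deposited ratios had been centred. In 99.3% of features the 4 tissue arrays had a median linear Cy5 over Cy3 ratio of 1, and the other 148 features each held a value at the table's lower limit. In a feature so centred, 2 of the 4 Cy5 over Cy3 ratios cannot lie below 1 and the other 2 cannot lie above it, so the sign of a single array, or a sign shared by both arrays of a tissue, is no agreement between replicates. The offset left by that step cancels in a tissue's mean and is absent from brain minus liver within an orientation. It does enter the spread between replica 1 and replica 2, which the fit without a block uses as its error. Another fit took it out as a replicate block, that is, with the dye orientation as a term, and counts of calls are given from both fits.

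Mt2 had 1.90 and 2.11 on the brain arrays and 0.83 and 0.52 on the liver arrays. Within each orientation the brain value exceeded the liver value, by 1.06 in replica 1 and 1.59 in replica 2. In brain the mean was 2.01 ± 0.15, 4.01-fold over hamster (limma, adjusted p = 0.0213, and 0.00798 with the replicate block). Without any 1 of the 4 arrays the brain value stayed between 1.90 and 2.11 and its adjusted p lay between 0.0882 and 0.127. In liver it was 0.68 ± 0.15, which did not pass (adjusted p = 0.0827), and brain minus liver was 1.33 with a 95% interval from 0.70 to 1.96 (adjusted p = 0.0604).

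Mt1 had 2.04 and 0.81 in brain and -2.16 and -4.94 in liver. The means were 1.43 ± 0.84 in brain (limma, adjusted p = 0.252) and -3.55 ± 0.84 in liver (adjusted p = 0.0866). The liver value is a signal 11.7-fold lower in mouse, and brain minus liver was 4.98 ± 1.19 (adjusted p = 0.0963). With the replicate block all 3 passed, at adjusted p = 0.0427, 0.00863 and 0.0197. Within replica 1 brain exceeded liver by 4.20 and within replica 2 by 5.76.

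Mt3 had -0.27 and -0.33 in brain and -0.81 and -0.53 in liver. Its means of -0.30 ± 0.13 and -0.67 ± 0.13 did not pass (limma, adjusted p = 0.164 and 0.0799), also not with the replicate block.

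The brain arrays of Txnip gave -2.36 and -1.04 and its liver arrays 0.22 and 0.19, so that brain minus liver was -2.58 in replica 1 and -1.23 in replica 2. The brain mean was -1.70 ± 0.38, 3.26-fold lower (limma, adjusted p = 0.0655, and 0.0231 with the replicate block), and the liver mean 0.20 ± 0.38. Brain minus liver was -1.91 with an interval from -3.52 to -0.30 and did not pass (adjusted p = 0.120, and 0.0775 with the block).

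Txn1 had 1.46 and 0.71 in brain and 1.51 and 0.88 in liver, with means of 1.08 ± 0.29 and 1.20 ± 0.29. Neither passed without the block (limma, adjusted p = 0.0796 and 0.0870) and both did with it (0.0261 and 0.0268). Brain minus liver was -0.11, with an interval from -1.34 to 1.11. Txnrd1 had -0.36 and -0.49 in brain and 0.79 and 0.38 in liver, and its brain minus liver difference of -1.01 ± 0.22 did not pass (adjusted p = 0.0869).

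Sod2 gave the same picture in both tissues. Its replica 1 values were at the table's limit, 6.64 in brain and 6.64 in liver, and its replica 2 values were 1.18 in brain and 1.00 in liver. The means of at least 3.91 in brain and at least 3.82 in liver, 15.1-fold and 14.1-fold, are therefore lower bounds. Without the block neither passed (limma, adjusted p = 0.229 and 0.245), and with it both did (0.00417 and 0.00506), although equal values at a limit make the spread look smaller than it is. The Sod2 feature thus gave at least 14.1 times more signal with mouse than with hamster RNA in liver.

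The other dismutases showed smaller ratios. Sod1 had -0.08 and -0.19 in brain and -0.95 and -0.25 in liver. Its means of -0.13 ± 0.22 and -0.60 ± 0.22 did not pass (limma, adjusted p = 0.652 and 0.135). The means of its features had the same direction in liver, at -0.34 and -0.86, and opposite directions in brain, at 0.02 and -0.28. Sod3 had -1.10 and -0.44 in brain and -0.33 and -0.69 in liver, with means of -0.77 ± 0.23 (adjusted p = 0.0940) and -0.51 ± 0.23 (adjusted p = 0.180).

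Cat had 0.28 and 0.23 in brain and -0.67 and -1.26 in liver, and brain exceeded liver by 0.95 in replica 1 and 1.49 in replica 2. The liver mean of -0.96 ± 0.19, 1.95-fold lower, passed with the replicate block (adjusted p = 0.0487) and not without it (limma, adjusted p = 0.0802). Brain minus liver was 1.22 with an interval from 0.40 to 2.04 (adjusted p = 0.0878). Red blood cells are rich in catalase and Sod1, so blood markers were read on the same arrays: of 4 measured of 7 listed, 0 were called by limma in either tissue without the block, with 3 at an unadjusted p under 0.05 in each. With the replicate block, in which the Cat liver value passed, 3 blood markers were lower in brain, and 1 was higher and 1 lower in liver. Their means lay between -1.69 and 0.45 in brain and between -1.08 and 1.47 in liver, and their part in the Cat and Sod1 values was not tested. Of 4 choroid plexus markers, limma called 0 in brain without the block, with 0 at an unadjusted p under 0.05, and 1 higher with it. In liver it called 1 higher in both fits, and in brain minus liver 1 lower in both.

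**Figure D5:**
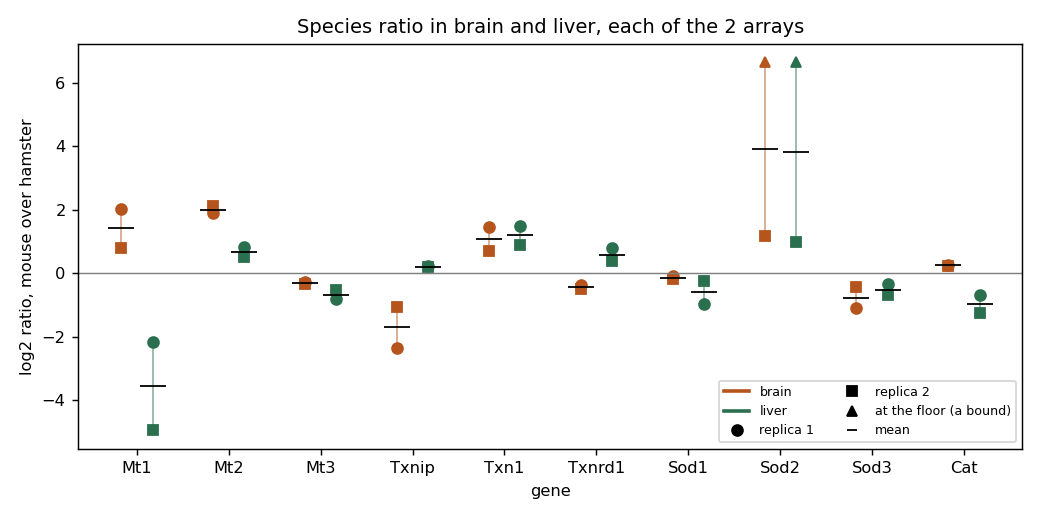
Log2 ratio of mouse over hamster (vertical axis) for the 10 genes (horizontal axis) in brain and liver. Circles are replica 1, squares replica 2, triangles values at the table's limit, and black bars the mean of both arrays. Mt1 has means of 1.43 in brain and -3.55 in liver, Txnip averages -1.70 in brain and 0.20 in liver, and Sod2 is high in both.

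In all, limma without the block called 1 of the 10 genes higher in mouse brain and 0 lower, where 10.1% and 5.91% of all genes were called, with 4 of the 10 at an unadjusted p under 0.05. In liver it called 0 in either direction, where 2.35% and 2.26% of all genes were called, with 6 of the 10 at an unadjusted p under 0.05. Brain minus liver called 0, where 3.53% and 2.54% were called, with 5 at an unadjusted p under 0.05. When the replicate block was added, 4 were called higher and 1 lower in brain (all genes 21.1% and 10.5%), 2 higher and 2 lower in liver (16.3% and 9.22%), and 1 higher and 0 lower in brain minus liver (4.84% and 3.97%). The medians over the 10 genes were 0.06 in brain and -0.16 in liver, against 0.06 and 0.02 over all genes.

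Of the listed pathway genes, limma called 3 of 24 metal handling genes higher in mouse brain and 1 lower, and 1 and 0 in liver. With the replicate block these counts were 9 and 2 in brain and 8 and 1 in liver. The zinc transporter Slc39a6 stood at 4.90 ± 0.19 in brain, and Mt4, the metallothionein of stratified epithelia, at -3.17 ± 0.37. The intestinal zinc importer Slc39a4 was at 4.49 ± 0.34 in liver. Of 24 thioredoxin system genes, 1 was higher and 1 lower in brain, and 4 and 1 in liver, among them the methionine sulfoxide reductase Msrb1 at 5.71 ± 0.11 and the mitochondrial peroxiredoxin Prdx3 at -2.27 ± 0.21 in liver, and the thioredoxin relative Nxn at -4.06 ± 0.59 in brain. With the block the thioredoxin counts were 7 and 3 in brain and 11 and 2 in liver. Of 21 peroxide and NRF2 genes, 2 were higher and 2 lower in brain, where Nqo1 reached 2.32 ± 0.22, and 1 and 0 in liver, and with the block 5 and 4 in brain and 4 and 1 in liver. Over all genes, 10.1% were higher and 5.91% lower in brain and 2.35% and 2.26% in liver, and with the block 21.1% and 10.5% in brain and 16.3% and 9.22% in liver.

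The hybrid and tissue means are given side by side for some of the genes, with no test between them. Mt1 averaged -1.52 in the hybrids, 1.43 in mouse brain and -3.55 in mouse liver. Mt2 averaged 0.54, 2.01 and 0.68 in the same order, and Sod2 averaged 0.50 with tissue bounds of 3.91 and 3.82. Mt3 averaged -0.52 in the hybrids, -0.30 in brain and -0.67 in liver. Txnip averaged -1.34 in the hybrids, -1.70 in brain and 0.20 in liver, and Txn1 averaged -0.13, 1.08 and 1.20. The hybrid ratios have A23 cells as their base and the tissue ratios have hamster tissue, so that their sizes are not on a common base.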

How the data were processed

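The authors deposited log10 ratios of Cy5 over Cy3 per feature for 202 arrays, per the labels. The scanner, the background correction and any normalisation step were not given in the sources used here. Ratios were turned to hybrid over A23 or mouse over hamster by the labelled dyes and converted to log2. The lowest log10 value, -2, acts as a floor. Features with 1 symbol in the probe table (17786) were averaged per gene, 3066 had no gene there and 16 had several. Without intensities, signal over background is unknown and the number of arrays limits the precision.

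All tests were run over 16504 genes with limma 3.58.1 in R 4.3.3, with Benjamini-Hochberg adjustment: line means against 0, a moderated F test over lines with dye orientation as a term, and tissue means on 4 arrays, which leave few residual degrees of freedom. The fits were tested on simulated data. The replicate number marks the dye orientation, per the labels, so both tissues share it. No column was left unmapped. Members, lists and tests were chosen with earlier results of these data known. The named genes were the 10 genes, the 3 most alike for Mt1, Txnip and Sod2, and the 2 highest and 2 lowest called genes over the pathway lists in panel, brain and liver; blood and choroid plexus markers were also read. The ranking between separate arrays, and Mt2 in it, were added after seeing the data. Neighbours by position and promoter motifs were planned and not analysed here.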

Additional observations from a re-analysis of the deposited data

Results flagged for a closer look

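The species ratio of Mt1 differed between the tissues, with brain minus liver at 4.98 on the log2 scale, once dye orientation was included as a replicate block (limma, adjusted p = 0.0197). The brain arrays gave 2.04 and 0.81 and the liver arrays -2.16 and -4.94. Without the block the difference did not pass (adjusted p = 0.0963). With the block 1 of the 10 genes was called higher and 0 lower, where 4.84% and 3.97% of all genes were called. The other 9 genes did not pass the test of this difference in either fit, and no group of samples had the size at which a single outlying array could be tested.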

How the results depend on the processing

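In the panel, 3 genes were higher and 3 lower. Replica 2 alone gave 5 higher, and replica 1 alone gave 5 lower. Txn1 was 0.49, Cat 0.34 and Sod3 -0.21 in replica 2 alone. In replica 1 alone Sod1 was -0.0147 and Txnrd1 was -0.06. Each is opposite in sign to the panel mean of its gene. So are the means of Txn1 and Cat in the matched lines, 0.22 and 0.14, where neither was called. Of the other panel settings, the matched lines, leaving out line 42, zeros as missing, scaling, centring, no size limit and features taken singly kept both counts within 1.5 times. The 2 genes that differed between lines became 6 in the matched lines, and without the dye term they were 2. In the tissues the replicate block raised the counts to 5 in brain, against 1 without it, to 4 in liver, against 0, and to 1 in brain minus liver, against 0. Calls over all genes rose as well. In brain they went from 10.1% higher and 5.91% lower to 21.1% and 10.5%. In liver they went from 2.35% and 2.26% to 16.3% and 9.22%. In brain minus liver they went from 3.53% and 2.54% to 4.84% and 3.97%. Leaving out any 1 tissue array left 0 calls by limma in brain. With 1 array left in a tissue, its spread was taken from the other. With features at the floor removed, Sod2 could not be fitted in the tissues. The ratios carry no signal over background, so dim features could not be set apart. The cause of these changes was not tested.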
